A study of Mus musculus with 3 samples.

Results

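Sox genes of subgroups B, C and E were examined in N1E-115 cells, a mouse neuroblastoma line. This tumour arises from precursors of sympathetic neurons. The members were taken by symbol: Sox1, Sox2 and Sox3 of subgroup B1 and Sox21 of subgroup B2, Sox4, Sox11 and Sox12 of subgroup C, and Sox8, Sox9 and Sox10 of subgroup E. All 10 were listed in the deposited table, among 24384 named genes. Poly(A) RNA was sequenced in 3 libraries of wild-type cells labelled as neuroblasts, collected at day 0 without treatment. The labels give this as the only group, so no comparison of conditions was possible. They do not say whether the libraries came from separate cultures, so the spread between them may be technical.

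Sox proteins bind DNA through an HMG box and act with partner factors on enhancers. SoxB1 proteins maintain neural progenitors, and Sox21 is a repressor that counteracts them. SoxC proteins act later, in neuroblasts and newly formed neurons, and in the mouse embryo Sox11 and Sox4 are needed for the growth and survival of sympathetic neuron precursors. SoxE proteins act in the neural crest and its glia: Sox10 is kept in Schwann cells, satellite glia and melanocytes, Sox9 also drives cartilage and Sertoli cells, and Sox8 overlaps with both.

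To show the members side by side, a stretch of 30 bases was taken from the GENCODE transcripts of mm10 and aligned without gaps. It lies near the start of the sequence encoding the HMG box and was chosen for its identity: it is the longest identical run of Sox1 and Sox11, and no pair from different subgroups had a longer one. It is printed below in the coding direction, with capitals at each base that differs from Sox4.
Sox1: cggcccatgaacgccttCatggtgtggtcC
Sox2: AggcccatgaacgccttCatggtAtggtcC
Sox3: cgAcccatgaacgcGttCatggtgtggtcC
Sox21: cggcccatgaacgccttCatggtgtggtcg
Sox4: cggcccatgaacgcctttatggtgtggtcg
Sox11: cggcccatgaacgccttCatggtgtggtcC
Sox12: cggccGatgaacgcGttCatggtgtggtcg
Sox8: cggcccatgaaTgccttCatggtgtggGcA
Sox9: cgAcccatgaacgccttCatggtgtggGcg
Sox10: AggcccatgaacgccttCatggtgtggGcA
Of the 30 positions, 21 were identical in all 10 genes. Sox21 differed from Sox4 at 1 position, Sox1 and Sox11 at 2, Sox9 and Sox12 at 3, and Sox2, Sox3, Sox8 and Sox10 at 4. The longest identical run between any pair of members' coding sequences was 48 bases, in Sox4 and Sox11, starting at base 226 of the Sox4 and base 196 of the Sox11 coding sequence.
Sox4 and Sox11: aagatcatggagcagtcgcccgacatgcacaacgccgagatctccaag
Within a subgroup, counting B1 and B2 together, the longest identical run was between 20 and 48 bases over 12 gene pairs. Between subgroups it was between 12 and 30 bases over 33 pairs. The estimated counts of the 10 genes were whole numbers in every library within a tolerance of 0.01, whereas 578 genes of the table held a fractional value.

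The libraries held 17731376, 13942014 and 15432235 counts in named genes for replicates 1, 2 and 3. Levels are given as CPM, the counts scaled to a common total, and a gene was called detected at 1 CPM or more in every library. A count of 0 allows up to 3 counts in a library, which is 0.169, 0.215 and 0.194 CPM in replicates 1, 2 and 3. Intervals and limits cover counting error only. Each pair of libraries differed by more than sampling noise (chi-square over degrees of freedom between 12.5 and 17.0), so none was taken as a repeat deposit of another. This does not show that the cultures were separate.

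The line expressed every SoxC gene and both Sox8 and Sox9 of subgroup E, and gave no counts for any SoxB gene. Of the 10 members, 5 were detected, near the share of all named genes (47.3%). All of these 5 also reached 50 CPM in every library, a level reached by 18.3% of named genes. No counts in any library were found for 4 members, against 36.7% of named genes. The median over the 10 members, 35.6 CPM, falls in the gap between Sox9 and Sox10 and is the level of no member; over all named genes it was 0.616 CPM.

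**Figure D1:**
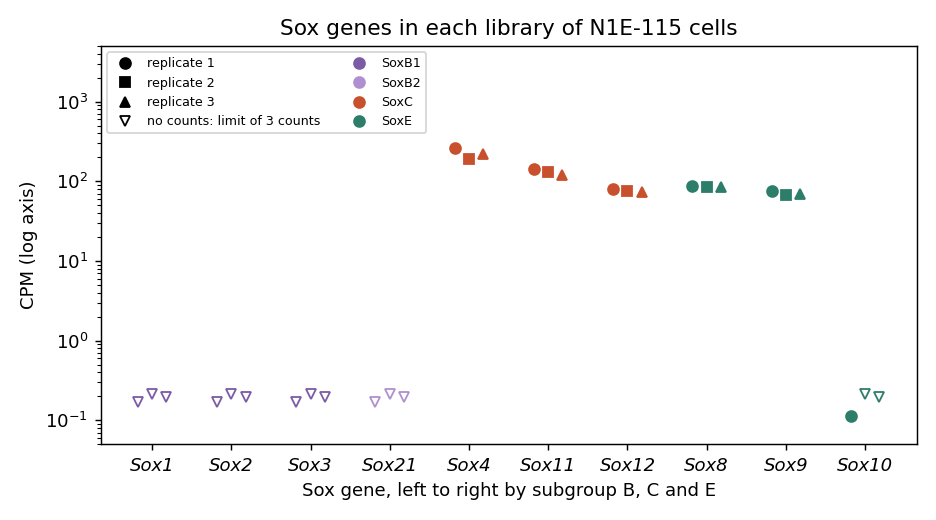
CPM (log axis) of the 10 Sox genes in each library of N1E-115 cells, coloured by subgroup. Open triangles mark libraries without counts at the limit that 3 counts allow; the SoxC genes, Sox8 and Sox9 lie between 68.1 and 265 CPM, and the single Sox10 value (0.113 CPM, replicate 1) comes from 2 counts.

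Sox4, the SoxC gene with the highest level, lies on chromosome 13 (28948919 to 28953713, minus strand, mm10). It is annotated as a single exon of 4795 nt. It held 4706, 2672 and 3385 counts in replicates 1, 2 and 3, or 265, 192 and 219 CPM (mean 225 ± 37.3, SD, n = 3). Replicate 1 was the highest and replicate 2 the lowest. By mean CPM it stood above 96.6% of named genes.

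Sox11, the SoxC gene most often used as a marker of immature neurons, lies on chromosome 12 (27334264 to 27342574, minus strand) as a single exon of 8311 nt. Its counts were 2508, 1844 and 1865, or 141, 132 and 121 CPM (mean 132 ± 10.3, SD, n = 3). Its range did not overlap that of Sox4. Sox12, the remaining SoxC gene, on chromosome 2 (152393611 to 152398063, minus strand, a single exon of 4453 nt in its longest transcript), held 1429, 1049 and 1140 counts. These are 80.6, 75.2 and 73.9 CPM (mean 76.6 ± 3.55), below every value of Sox11.

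Sox8 was the SoxE gene with the highest level. It lies on chromosome 17 (25565892 to 25570686, minus strand, 3 exons in its longest transcript) and held 1556, 1172 and 1318 counts, or 87.8, 84.1 and 85.4 CPM (mean 85.7 ± 1.87, SD, n = 3). The 3 libraries were closer together than for any other detected member. Sox9, on chromosome 11 (112782224 to 112787760, plus strand, 3 exons), held 1344, 950 and 1069 counts, or 75.8, 68.1 and 69.3 CPM (mean 71.1 ± 4.13). Its values lay below those of Sox8 in every library and overlapped those of Sox12.

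Sox10, the SoxE gene of Schwann cells and melanocytes, was not detected. It lies on chromosome 15 (79154908 to 79165240, minus strand) and held 2 counts in replicate 1 and none in replicates 2 and 3. Over the 3 libraries Sox8 held 4046 counts against these 2, a ratio per length of 1980 (95% exact interval 548 to 16351). The ratio per length of Sox9 to Sox10 was 1241 (343 to 10249). Both ratios rest on replicate 1, since without it Sox10 had no counts. The SoxE genes divided into a pair between 68.1 and 87.8 CPM and Sox10 with 2 counts in all.

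The SoxB genes were without counts in every library. Sox1, Sox2 and Sox3 hold the progenitor functions of the subgroup, and all 3 were at 0, as was Sox21. As the lowest value over the 3 libraries, Sox4 was at least 382-fold higher per length than Sox2, at least 384-fold higher than Sox3, at least 706-fold higher than Sox21 and at least 898-fold higher than Sox1, with the limit of 3 counts taken per library. Sox2ot, a noncoding gene whose span contains Sox2 on the same strand, also had no counts. The span of Sox1ot contains all 4832 nt of Sox1 on the same strand, and Gm4675 overlaps Sox21 over 799 nt on the opposite strand. Neither was listed among the named genes. How the counter treated reads shared by overlapping genes is not given in the sources used here, and the folds take no account of it. The longest transcript of each of the 4 SoxB and 3 SoxC members is a single exon.

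Comparison between genes needs a scale per length, since long transcripts give more reads, and here CPM was divided by the length of the annotated exons in kilobases. Sox4 remained the highest (47.0 ± 7.77 CPM per kilobase, SD, n = 3), with 55.4, 40.0 and 45.7 in replicates 1, 2 and 3. Sox8 came next at 27.5 ± 0.60 CPM per kilobase. Sox12 (17.2 ± 0.80), Sox9 (17.2 ± 1.0) and Sox11 (15.8 ± 1.24) followed close together. Sox11, with the longest annotated transcript, followed Sox4 by CPM and was the lowest of the 5 by CPM per kilobase.

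**Figure D2:**
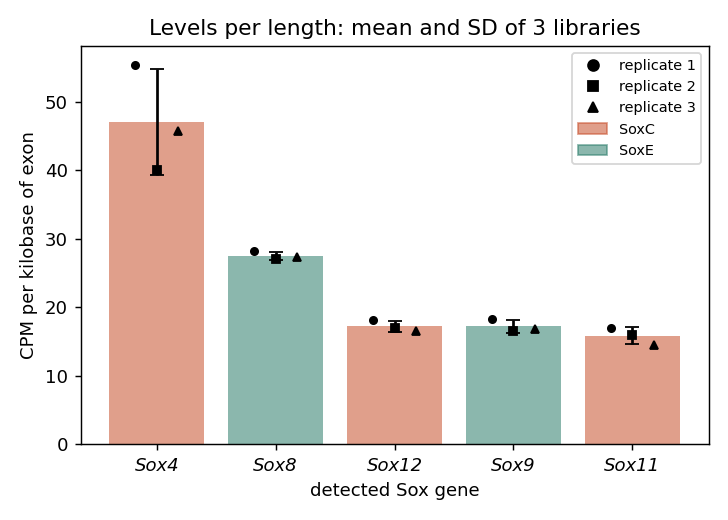
CPM per kilobase of exon of the 5 detected Sox genes; bars are means of 3 libraries, error bars are SD and symbols are the libraries. Sox4 and Sox8 stand apart from each other and from the rest, whereas Sox12, Sox9 and Sox11 lie between 14.5 and 18.3 CPM per kilobase and overlap.

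Neighbours in this order were compared within libraries, as log2 ratios of CPM per kilobase with a pseudocount of 0.1. Sox4 exceeded Sox8 by 0.76 ± 0.20 (SD), or 1.69-fold, in 3 of 3 libraries. Sox8 exceeded Sox12 by 0.68 ± 0.04, or 1.60-fold, in 3 of 3 libraries. In both pairs the ranges did not overlap. Sox12 and Sox9 could not be ordered: the log2 ratio was 0.001 ± 0.030, with Sox12 higher in 1 library. Sox9 exceeded Sox11 by 0.12 ± 0.08 in 3 of 3 libraries, but their ranges overlapped. A two-sided exact sign-flip permutation test of 3 libraries cannot go below p = 0.25. That value was reached by the pairs Sox4 and Sox8, Sox8 and Sox12, and Sox9 and Sox11, and p was 1 for Sox12 and Sox9 (adjusted over the 4 pairs, 0.333 and 1), so no pair passed the test. Without length scaling, Sox11 was above Sox9, with a log2 ratio of Sox9 to Sox11 of -0.89.

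The level of Sox8 depends on which transcript is taken as its length. The 3118 nt of annotated exon combine 3 transcripts, and the shortest transcript annotated as coding has 492 nt. It is a partial model, shorter than the Sox8 coding sequence of 1392 nt, and dividing by its length would give 174 CPM per kilobase. With the longest transcript of 3000 nt it was 28.6 CPM per kilobase. The first bases of the Sox8 gene overlap a noncoding gene on the opposite strand, 2810468N07Rik, over 329 nt. That gene held 238, 209 and 155 counts, far fewer than Sox8. Whether the counting used strand is not given in the sources used here, and reads of the overlapping bases cannot be assigned with certainty. The same holds for Sox4, which overlaps the noncoding gene Gm26735 on the opposite strand over 2753 nt. Gm26735 was not listed among the named genes.

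Among 11115 detected genes with a known length, Sox4 lay above 90.3% by CPM per kilobase and Sox8 above 82.3%. Sox12 and Sox9 both lay above 72.2%, and Sox11 above 70.0%. The median of detected genes was 7.93 CPM per kilobase, below each of the 5 members in every library.

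**Figure D3:**
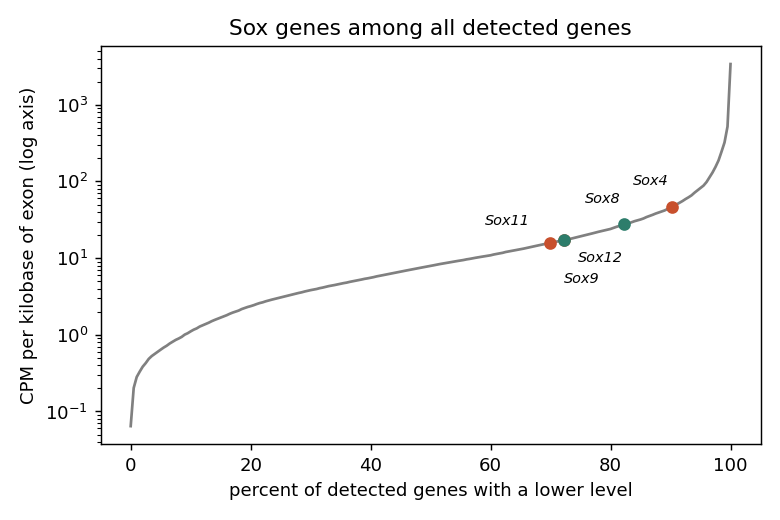
CPM per kilobase of exon (log axis) against the percent of detected genes with a lower level; the line is all 11115 detected genes with a known length and the points are the Sox genes, SoxC in orange and SoxE in green (Sox12 lies under Sox9). The 5 genes lie above 70.0 to 90.3% of these detected genes.

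SoxC genes took most of the counts of the members. Their share was 74.9, 72.4 and 72.8% in replicates 1, 2 and 3 (exact Clopper-Pearson 95% intervals 74.1 to 75.7, 71.4 to 73.4 and 71.9 to 73.7%), a mean of 73.4 ± 1.32%. SoxE genes took the rest, 26.6 ± 1.32%. The summed level was 434 ± 47.3 CPM for SoxC and 157 ± 6.03 CPM for SoxE. Per length the split was less uneven, with 64.1 ± 1.77% for SoxC and 35.9 ± 1.77% for SoxE. Within subgroup C, Sox4 supplied 58.5 ± 3.24% of the level per length, Sox12 21.6 ± 1.61% and Sox11 19.9 ± 1.73%. Within subgroup E, Sox8 supplied 61.5 ± 0.89% and Sox9 38.4 ± 0.85%.

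The libraries were compared gene by gene over the whole table, to see whether a member varied more than genes of similar count. An intercept-only edgeR negative binomial fit was tested by its deviance, with Benjamini-Hochberg adjustment over 11821 genes, of which 76 (0.643%) were called at an adjusted p under 0.05. The 5 detected members entered this test and 0 of them were called, at an unadjusted p under 0.05 also 0, against 5.9% of all genes tested. The other 5 members were too low to be tested. Sox4 had the smallest p of the members (edgeR unadjusted p = 0.0883, adjusted p = 0.9997), and its adjusted p was between 0.802 and 0.9999 over the 9 settings tried. Its unadjusted p was under 0.05 in 2 of these 9 settings.

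Sox4 had the widest spread of the detected members, with a coefficient of variation of 16.5%. The median of the 500 detected genes nearest in CPM was 7.54%, and 6.6% of them were more variable. Relative to the mean of the other libraries, Sox4 was at 0.34 in replicate 1, -0.34 in replicate 2 and -0.005 in replicate 3 (log2 CPM, TMM scaling). Sox8 was at the opposite end, with a coefficient of variation of 2.18%, and 96.6% of the 500 genes nearest to it were more variable. For Sox11, Sox12 and Sox9 the coefficient was 7.84, 4.64 and 5.82%.

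Differences between these libraries shifted with transcript length. This trend was fitted over all tested genes, and its size was not tested. At the length of Sox11, the trend over all tested genes was 0.09 in replicate 1, -0.10 in replicate 2 and 0.02 in replicate 3 (log2, library against the mean of the others). Sox11 itself was at 0.13, 0.009 and -0.14. After removal of the trend Sox11 was at 0.05, 0.11 and -0.16, so the library in which it was highest changed from replicate 1 to replicate 2. At the length of Sox4 the trend was within 0.015 of 0 in every library, and the Sox4 values hardly moved (0.33, -0.34 and 0.002). At the shorter length of Sox8 the trend had the opposite sign to that at Sox11 (-0.05, 0.07 and -0.01 in replicates 1, 2 and 3). Its removal took Sox8 from 0.02, -0.05 and 0.03 to 0.08, -0.12 and 0.04. Sox12 was then at 0.08, -0.06 and -0.03, so Sox8 no longer had the narrowest spread of the detected members.

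**Figure D4:**
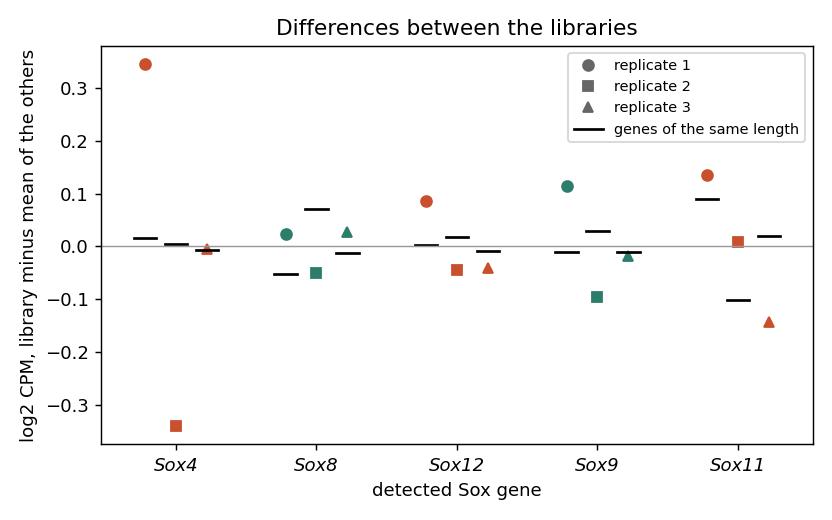
Log2 CPM of each library minus the mean of the others for the 5 detected Sox genes; symbols are libraries and black ticks are the trend of all tested genes at the same transcript length. Sox4 spans from -0.34 to 0.34, and Sox8 from -0.05 to 0.03.

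The promoter windows of the members were read from RefSeq (GRCm38.p6, the assembly of mm10), from 250 bases before to 50 after the annotated start. Windows were matched for 7 of the 10 members. The ones printed are the SoxC genes with the highest CPM, the SoxE gene with the highest level and a SoxB gene without counts. They run 5′ to 3′ on the strand of the gene, with capitals at matches on either strand to the CCAAT box, spelled CCAAT, to the GC box, for which the search used the letters GGGCGG, and to the TATA box, for which the letters searched were TATAAA. Matches of the GC box may overlap one another.
Sox4, chr13:28953650-28953949, minus strand: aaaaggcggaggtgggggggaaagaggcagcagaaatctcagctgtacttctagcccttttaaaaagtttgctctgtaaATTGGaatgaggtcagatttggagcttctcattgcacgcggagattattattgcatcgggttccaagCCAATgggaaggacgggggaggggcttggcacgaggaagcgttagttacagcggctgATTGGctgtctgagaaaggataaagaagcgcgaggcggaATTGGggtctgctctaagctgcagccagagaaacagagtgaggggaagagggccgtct
Sox11, chr12:27342669-27342968, minus strand: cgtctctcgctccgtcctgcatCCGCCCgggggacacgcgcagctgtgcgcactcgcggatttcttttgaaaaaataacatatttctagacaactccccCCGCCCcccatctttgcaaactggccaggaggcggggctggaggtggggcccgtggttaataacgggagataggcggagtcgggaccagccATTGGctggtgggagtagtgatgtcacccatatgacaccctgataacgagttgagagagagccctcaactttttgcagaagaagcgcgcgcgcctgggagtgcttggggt
Sox8, chr17:25570637-25570936, minus strand: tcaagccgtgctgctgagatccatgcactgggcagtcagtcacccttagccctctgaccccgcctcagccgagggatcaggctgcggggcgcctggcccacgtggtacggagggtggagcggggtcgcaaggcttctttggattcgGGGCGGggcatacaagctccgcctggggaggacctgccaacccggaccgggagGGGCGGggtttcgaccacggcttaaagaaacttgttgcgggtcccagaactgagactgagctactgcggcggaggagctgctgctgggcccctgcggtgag
Sox2, chr3:34649745-34650044, plus strand: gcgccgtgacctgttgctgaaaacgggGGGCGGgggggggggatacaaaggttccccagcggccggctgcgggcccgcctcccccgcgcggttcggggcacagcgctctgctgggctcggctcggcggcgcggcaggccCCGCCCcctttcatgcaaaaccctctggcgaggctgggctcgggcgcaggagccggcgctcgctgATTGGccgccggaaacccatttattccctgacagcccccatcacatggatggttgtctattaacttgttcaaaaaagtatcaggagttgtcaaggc
The Sox4 window held CCAAT 4 times, at positions -171, -104, -47 and -8 from the annotated start, and no GC box. CCAAT occurred at least once in 37.4% of all 32851 promoter windows and 4 times or more in 1.06%. The Sox11, Sox12, Sox1 and Sox2 windows held CCAAT once, and the Sox8 and Sox21 windows did not. The GC box, present in 35.7% of all windows, occurred in those of Sox11, Sox8 and Sox2 (2 copies each), Sox1 (3 copies) and Sox12 (4 copies). TATAAA, in 13.6% of all windows, was in none of the 7. Sox1 and Sox2, at 0 counts, held both the CCAAT box and the GC box, as did Sox11 and Sox12, which were expressed. GC content was 52.0% for Sox4, the lowest of the 7, and 76.7% for Sox12, the highest, with a median of 52.7% over all windows. Sox4 also had the fewest CpG dinucleotides (12, against 21 to 47 in the other windows and a median of 7 over all windows).

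Beyond the 10 members, the Sox family was low except for Sox6. Of 10 further Sox genes, 1 was detected, against 47.3% of all named genes. Sox6, a SoxD gene of cartilage, muscle and neural progenitors, held 1287, 760 and 1042 counts, or 72.6, 54.5 and 67.5 CPM (mean 64.9 ± 9.32, SD, n = 3). Per kilobase it was at 4.37 ± 0.63, below each detected member. Sox5 (0.692 CPM) and Sox13 (0.276 CPM), the other SoxD genes, were not detected. Sox14, which also belongs to subgroup B2, had no counts, as did Sry, Sox15, Sox17 and Sox30. The 10 members took 89.9 ± 0.76% of all Sox counts.

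Genes that act with the Sox proteins or are linked to them were read from lists. The background for each count of detected genes is the 47.3% of all named genes that were detected. Of 8 POU and paired-box partners of SoxB proteins, 3 were detected: Pou2f1, a broadly expressed POU factor (76.2 ± 19.2 CPM), Pou4f1, of sensory and autonomic neurons (14.8 ± 0.46), and Pax6, a progenitor factor (7.63 ± 1.40). Pou5f1, Pou3f1, Pou3f2, Pou3f3 and Pou3f4 had no counts. Of 7 genes listed as linked to SoxC proteins, 4 were detected. Tubb3, the neuronal tubulin described as a SoxC target, was at 689 ± 41.9 CPM, Stmn2 at 303 ± 39.6 and Map2 at 113 ± 7.14. Dcx, another described target, was at 2.87 ± 0.35 CPM, while Tead2 (0.624 CPM) and Neurod1 (0.062 CPM) were not detected and Prox1 had no counts.

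Of 18 genes linked to SoxE proteins in glia, melanocytes, cartilage and testis, 7 were detected, against 47.3% of all named genes. The median was 0.757 CPM. Ret, the receptor for GDNF-family ligands, which is also made by sympathetic neurons, was the exception at 1899 ± 181 CPM. Erbb3, the neuregulin receptor of Schwann cell precursors, was at 9.08, 4.95 and 3.37 CPM in replicates 1, 2 and 3 (5.80 ± 2.95), and Col11a2, a cartilage collagen, at 5.23 ± 1.08. Dct, Ednrb, Mag, Gjb1 and Pou3f1 had no counts. The ranges of Sox8 and Sox9 in CPM, 68.1 to 87.8, lay above every listed gene other than Ret.

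Markers of cell types were read beside the members. The background for each count is again the 47.3% of all named genes that were detected, so a count near that share does not point to a cell type. The label of neuroblasts was met by 14 of 15 sympathoadrenal markers, led by Chgb, a granule protein (2632 ± 197 CPM), Prph, a peripheral neuron filament (934 ± 55.8), and Hand2, a sympathetic transcription factor (670 ± 62.0). Of 12 neural progenitor markers, 6 were detected, near the share of all named genes. Nes (86.9 ± 13.8), Msi1 (25.3 ± 1.54) and Pax6 led, and Fabp7, Emx2 and Slc1a3 were among those at 0. Of 11 neural crest markers, 4 were detected, led by Ets1 (51.2 ± 6.54), Msx1 (9.07) and Tfap2b (4.42 CPM), and Foxd3, Tfap2a, Ednrb and Twist1 were among those at 0.

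Of 13 Schwann cell and satellite glia markers, 7 were detected, near the share of all named genes (47.3%). The list had a median of 1.51 CPM and a summed level of 415 to 507 CPM over the libraries. Most of that sum was Pmp22, a membrane protein also made outside glia (404 ± 40.1), followed by Cnp (40.3 ± 5.47) and Prx (6.22), while Mag, Gjc3 and Fabp7 were at 0. For melanocytes 1 of 7 markers was detected, with a summed level of 2.22 to 2.65 CPM, Mitf at 2.0, Pmel at 0.376 and Tyrp1 at 0.0216 CPM, and Tyr, Dct, Mlana and Kit at 0. For chondrocytes 1 of 7 was detected, with a summed level of 5.44 to 9.25 CPM. There Col11a2 led, followed by Col2a1 (1.16 CPM) and Comp (0.377 CPM), with Acan at 0.0239 CPM and Matn1 at 0. For Sertoli cells 2 of 6 were detected, with a summed level of 45.5 to 52.3 CPM, mostly of Gata4 (39.4 CPM). Dhh was at 8.85 and Amh at 1.15 CPM, and Dmrt1 and Wt1 were at 0. Oligodendrocyte markers were detected in 3 of 9 cases, with a summed level of 6.02 to 9.01 CPM. Pdgfra (4.24 CPM), Myrf (1.36 CPM) and Cspg4 (1.29 CPM) led, and Olig1, Olig2, Nkx2-2 and Mog were at 0. The summed levels of the melanocyte, chondrocyte, oligodendrocyte and Sertoli cell lists were each below the single-gene levels of Sox8 and Sox9. That of the Schwann cell and satellite glia list was above them, and Pmp22 alone was above them. In bulk RNA, few cells with much RNA and many cells with little cannot be told apart.

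**Figure D5:**
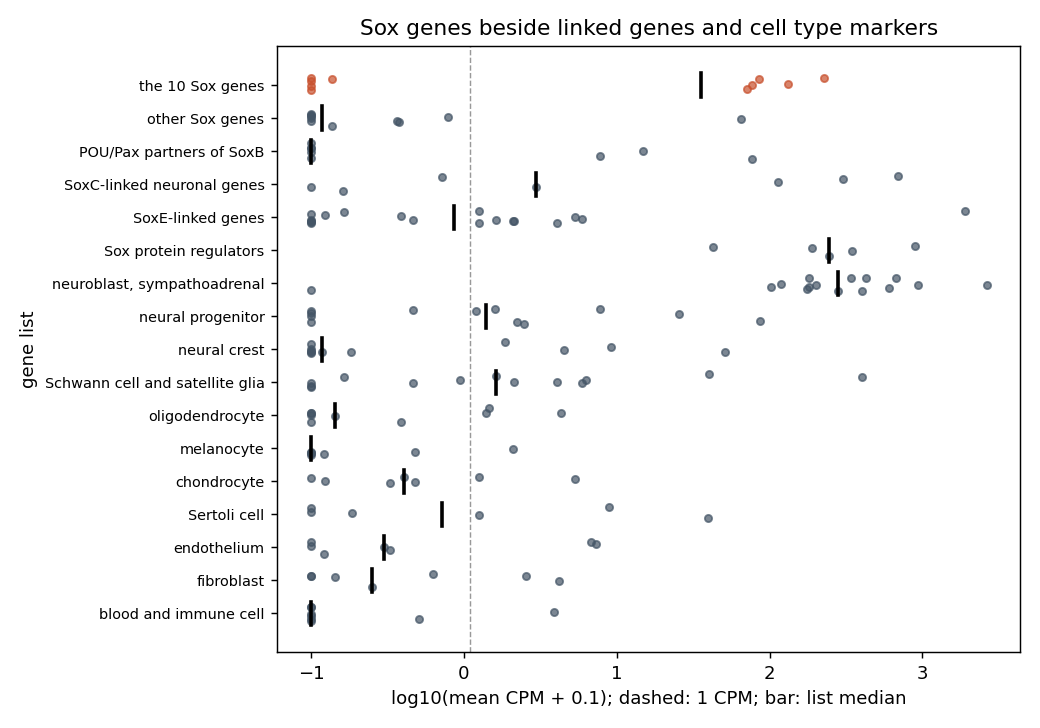
Mean CPM over 3 libraries on a log10(CPM + 0.1) axis for the 10 Sox genes and each gene list; points are genes, black bars list medians and the dashed line 1 CPM. The Sox genes form a cluster of 5 above 50 CPM and a cluster of 5 at or near 0, and the sympathoadrenal and Sox protein regulator lists have medians of 281 and 245 CPM.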

How the data were processed

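Per the labels' protocols, total RNA came from ISOGEN extraction, was enriched for poly(A) RNA and went through a directional library kit. Per the submitters' processing notes, STAR and the build mm10 were used; the counter and whether it used strand were not given in the sources used here. The values deposited by the authors are estimated counts for each symbol, unscaled; they were rounded to whole numbers. Of 24411 rows, 27 named by calendar dates (0.281 to 0.306% of counts) were left out of totals and tests.

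CPM used the totals of named genes. Exon lengths came from GENCODE vM21 (mm10), matched for 23309 genes (95.6%). Variation between libraries was assessed in edgeR 4.0.16 under R 4.3.3 (filterByExpr, TMM, trended dispersion, deviance on 2 degrees of freedom) after a check on simulated counts. DESeq2 1.42.0 gave alternative size factors. Python 3.11.15, SciPy 1.17.1 and pandas 2.3.3 did the rest. A quasi-likelihood contrast was not used because there was 1 group. Intervals are exact Clopper-Pearson 95% intervals. The members and gene lists were chosen with earlier results of these data known. All 10 members are named; of each list, the 3 highest genes and undetected defining members. Some listed genes are not reported here. Alternatives covered scaling, detection minimum, length, pseudocount, filter, dispersion and leaving out each replicate.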

Additional observations from a re-analysis of the deposited data

Results flagged for a closer look

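The rows named by calendar dates were left out of the totals and tests and held 139034 estimated counts over the 3 libraries, more than the 3 counts that a 0 allows. None of the 10 Sox genes is among them. Single libraries were not tested as outliers, since the group had 3.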

How the results depend on the processing

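The count of 5 detected members was the same with minima of 0.5 CPM, 5 CPM or 10 counts, with TMM scaling and without each replicate. The CPM of the 5 detected members moved by less than 1 SD under TMM scaling, DESeq2 size factors, totals with the date rows and unrounded counts. Without each replicate Sox4 was at 205 to 242 CPM. The length used mattered more: Sox12 was at 18.4 CPM per kilobase with its shortest coding transcript, and Sox8 at 28.6 with its longest and 174 with its shortest, a partial model of 492 nt. Per kilobase, the SoxC share was 64.1% and the SoxE share 35.9%. The log2 ratio of Sox9 to Sox11 turned to -0.89 without length scaling, and that of Sox12 to Sox9 ranged from -0.016 to 0.011 without each replicate. The number of genes called as varying rose from 76 to 116 with a common dispersion and fell to between 36 and 52 without a replicate, where fewer samples were fitted: 36 without replicate 1, 40 without replicate 2 and 52 without replicate 3. No detected member was called in any of these fits. The cause of these changes was otherwise not tested. No paired analysis of conditions was possible because there was 1 group. Depth limits the SoxB genes to an upper bound, and Sox10 rests on 2 counts.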

Other observations

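Regulators of Sox proteins were all detected, 5 of 5, against 47.3% of all named genes, with a median of 245 CPM. Kpnb1, a nuclear import receptor, was at 894 ± 48.0 CPM (SD, n = 3), and Sdcbp, which in human cells binds SOX4, at 245 ± 13.7. Fbxw7, a ubiquitin ligase subunit that in human cells targets SOX9, was at 42.6 ± 1.35 CPM.

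Sox5 held 19 and 14 counts in replicates 1 and 2 and none in replicate 3, and Sox18, a SoxF gene of endothelium, held 1, 3 and 8 counts; both were chosen after their values were seen. Endothelial markers were detected in 2 of 7 cases, with a summed level of 11.6 to 17.5 CPM, led by Vwf (7.26), Pecam1 (6.69) and Tek (0.229 CPM), with Kdr and Cldn5 at 0. Fibroblast markers were detected in 2 of 7 cases (4.80 to 9.59 CPM), led by Pdgfrb (4.11), Col1a1 (2.45) and Col1a2 (0.524 CPM). Of 8 blood and immune markers, 1 was detected (3.37 to 5.31 CPM), with Cd74 at 3.80 and Cd68 at 0.41 CPM and the rest at 0. Over all named genes the detected share was 47.3%.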
